A study of Mus musculus with 9 samples.

Results

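The genes followed here are 39 genes of ribosome biogenesis and the nucleolus in the brain of the mouse embryo at embryonic day 14. They were taken by symbol from the 56748 genes of a raw count table. All 39 were found, and all passed the filter on low counts that left 17171 tested genes. Whole brains of 3 groups were sequenced, with 3 libraries in each. The valproic acid group had been exposed to an anticonvulsant that also inhibits histone deacetylases. Poly(I:C), given to a second group, is a synthetic double-stranded RNA used to imitate a virus. Control mice had received saline. The controls are described as wild type, and the labels give neither strain, dose, day and route of exposure, litter nor sex. No label says whether libraries of 1 group came from separate embryos or litters. By sex-linked genes, given further on, replicate 3 of poly(I:C) and replicate 3 of control differed from the rest of their groups. Those groups were thus not repeats of a single embryo throughout. The p-values cover the spread among these libraries alone, which may still be partly technical, and wholly so in the valproic acid group.

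Ribosome biogenesis starts in the nucleolus, where RNA polymerase I copies the ribosomal DNA into a long precursor RNA. Small nucleolar particles of the box C/D kind methylate the ribose of that precursor, and those of the box H/ACA kind turn uridines into pseudouridine. Large assemblies of maturation factors then cut and fold it into the small and the large subunit. MYC family proteins are known activators of many of these genes, often through the E-box CACGTG, and dividing neural progenitors have prominent nucleoli. The 39 genes were grouped as nucleolar scaffold proteins (3 genes), box C/D proteins (3), box H/ACA proteins (3), the RNA polymerase I machinery (6), small subunit factors (8), large subunit factors (14) and the transcription factors Mycn and Myc (2).

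Promoter sequence is shown for the 4 genes that changed in some comparison and hold an E-box in the RefSeq promoter table (build GRCm38.p6), which covers 250 bases before to 50 bases after a start. Mybbp1a lies at chr11:72441077-72441376 (plus strand), Nop2 at chr6:125131633-125131932 (plus strand), Pes1 at chr11:3963725-3964024 (plus strand) and Tma16 at chr8:66486481-66486780 (minus strand). Each sequence reads 5′ to 3′ along the gene's strand, and capitals mark CACGTG, which is its own reverse complement and so was searched on both strands at once.
Mybbp1a: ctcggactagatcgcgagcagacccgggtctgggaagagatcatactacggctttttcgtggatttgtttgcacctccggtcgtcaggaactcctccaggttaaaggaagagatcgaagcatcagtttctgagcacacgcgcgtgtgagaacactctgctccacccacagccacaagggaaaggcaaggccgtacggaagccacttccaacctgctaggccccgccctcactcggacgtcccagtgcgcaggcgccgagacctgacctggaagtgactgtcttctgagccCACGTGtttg
Nop2: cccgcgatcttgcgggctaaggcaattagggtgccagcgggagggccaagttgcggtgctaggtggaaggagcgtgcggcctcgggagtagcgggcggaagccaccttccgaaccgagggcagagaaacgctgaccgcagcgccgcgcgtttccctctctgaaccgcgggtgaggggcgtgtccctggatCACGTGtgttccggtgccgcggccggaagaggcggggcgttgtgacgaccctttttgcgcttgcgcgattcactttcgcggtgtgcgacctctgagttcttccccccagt
Pes1: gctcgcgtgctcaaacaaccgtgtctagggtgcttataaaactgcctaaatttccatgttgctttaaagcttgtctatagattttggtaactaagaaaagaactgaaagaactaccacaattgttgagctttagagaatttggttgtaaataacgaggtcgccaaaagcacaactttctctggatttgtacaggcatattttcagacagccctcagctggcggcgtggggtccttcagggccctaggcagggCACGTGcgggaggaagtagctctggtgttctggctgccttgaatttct
Tma16: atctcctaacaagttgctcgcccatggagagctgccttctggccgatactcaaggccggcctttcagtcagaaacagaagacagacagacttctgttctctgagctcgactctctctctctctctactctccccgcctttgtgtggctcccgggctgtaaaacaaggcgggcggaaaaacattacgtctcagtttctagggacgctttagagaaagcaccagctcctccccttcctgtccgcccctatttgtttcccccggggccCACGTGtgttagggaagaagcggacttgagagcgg
In Nop2 the E-box ended 54 bases before the start. In Mybbp1a, Tma16 and Pes1 it began 40, 15 and 2 bases after it. The table had windows for 33 of the 39 genes, and 7 of them (21.2%) held the motif, as did 8.09% of all 27025 genes with a window. Counted by window, it was in 7 of 42 (16.7%), against 7.15% of all 32851 windows. The other 3 genes with the motif were Rrn3, Utp20 and Utp4. Among genes called in at least 1 comparison 4 of 11 with a window held it, and among the rest 3 of 22. A match describes these letters only and shows no binding.

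Totals were 15399974 to 19883131 counts per library, and the biological coefficient of variation over all tested genes was 7.44%. The 39 genes had between 307 and 11975 counts in a library. They lie on 18 chromosomes, none of them X or Y. Their median coefficient of variation within a group was 3.36% in valproic acid, 3.04% in poly(I:C) and 3.72% in control libraries, and the widest were 13.1% for Utp4, 14.3% for Noc2l and 10.3% for Rrp12. The libraries stood apart by sex-linked genes. Xist, the X inactivation RNA, was at 979 to 1054 CPM (counts scaled by library size) in the 3 valproic acid libraries and 1047 CPM in poly(I:C) replicate 3, and at most 0.236 CPM elsewhere. Y-linked genes summed to 196 to 201 CPM in poly(I:C) replicates 1 and 2 and control replicates 1 and 2, and to 0 in the rest. Control replicate 3 thus had neither mark, with Xist at 0.0497 CPM and a Y-linked sum of 0, and its sex is unclear. Sex and valproic acid exposure cannot be told apart in these libraries.

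In valproic acid brains 12 of the 39 genes rose and 0 fell against control, with rises of 1.10-fold to 1.34-fold. Of all tested genes 6.35% were called, 3.57% higher and 2.78% lower (613 and 477 genes). A call is an adjusted p under 0.05 (Benjamini-Hochberg over all tested genes) in edgeR's quasi-likelihood test. At an unadjusted p under 0.05, 19 of the 39 were higher and 0 lower, where 22.1% of all tested genes passed in either direction. DESeq2 called 12 higher and 0 lower, and called 9.01% of all genes to which it gave an adjusted p. Its 12 were not the same set, since Polr1c, called by edgeR, was not among them. For 21 of 39 (53.8%) every valproic acid library lay above every control library, and for 0 all lay below, against 12.6% and 13% of all tested genes. Log2 differences were above 0 in 37 of 39, against 49.1% of all tested genes. The median log2 difference was 0.13 over the 39 and -0.0033 over all tested genes. Summed over the 39, the level was 3841 ± 61.9 CPM in valproic acid and 3465 ± 33.7 CPM in control brains (mean ± SD, n = 3 each), a sum in which the abundant Ncl and Npm1 weigh most. In whole brain, more cells of a type and more RNA per cell cannot be told apart.

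This count moved with the libraries included and with covariates for sex. Leaving out 1 library at a time gave 3 to 8 rising genes, the fewest without control replicate 1 and the most without control replicate 2. There were 6 without control replicate 3, 6 without valproic acid replicate 1, 5 without valproic acid replicate 2 and 6 without valproic acid replicate 3. The share of all tested genes called in either direction fell too, from 6.35% to between 2.67% and 4.50% in these fits. With summed Y-linked expression as a covariate 3 genes rose (Ncl, Mybbp1a and Ddx21), where 1.58% of all tested genes were called. That covariate sets control replicate 3 with the libraries high in Xist, whereas Xist sets it with those that have Y-linked counts. With Xist as a covariate edgeR called 0 of the 39 and 0.111% of all tested genes, with 11 of the 39 higher at an unadjusted p under 0.05. No share of all tested genes at that unadjusted threshold is given for this fit. Xist was high in every valproic acid library and low in every control library, so its fitted effect rests mainly on poly(I:C) replicate 3. Calls lost and signs turned with Xist, here and further on, therefore cannot separate sex from exposure. The median difference stayed at 0.13 with the first covariate and was 0.14 with the second. Genes above 0 numbered 34 of 39 with the first and 32 with the second.

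**Figure D1:**
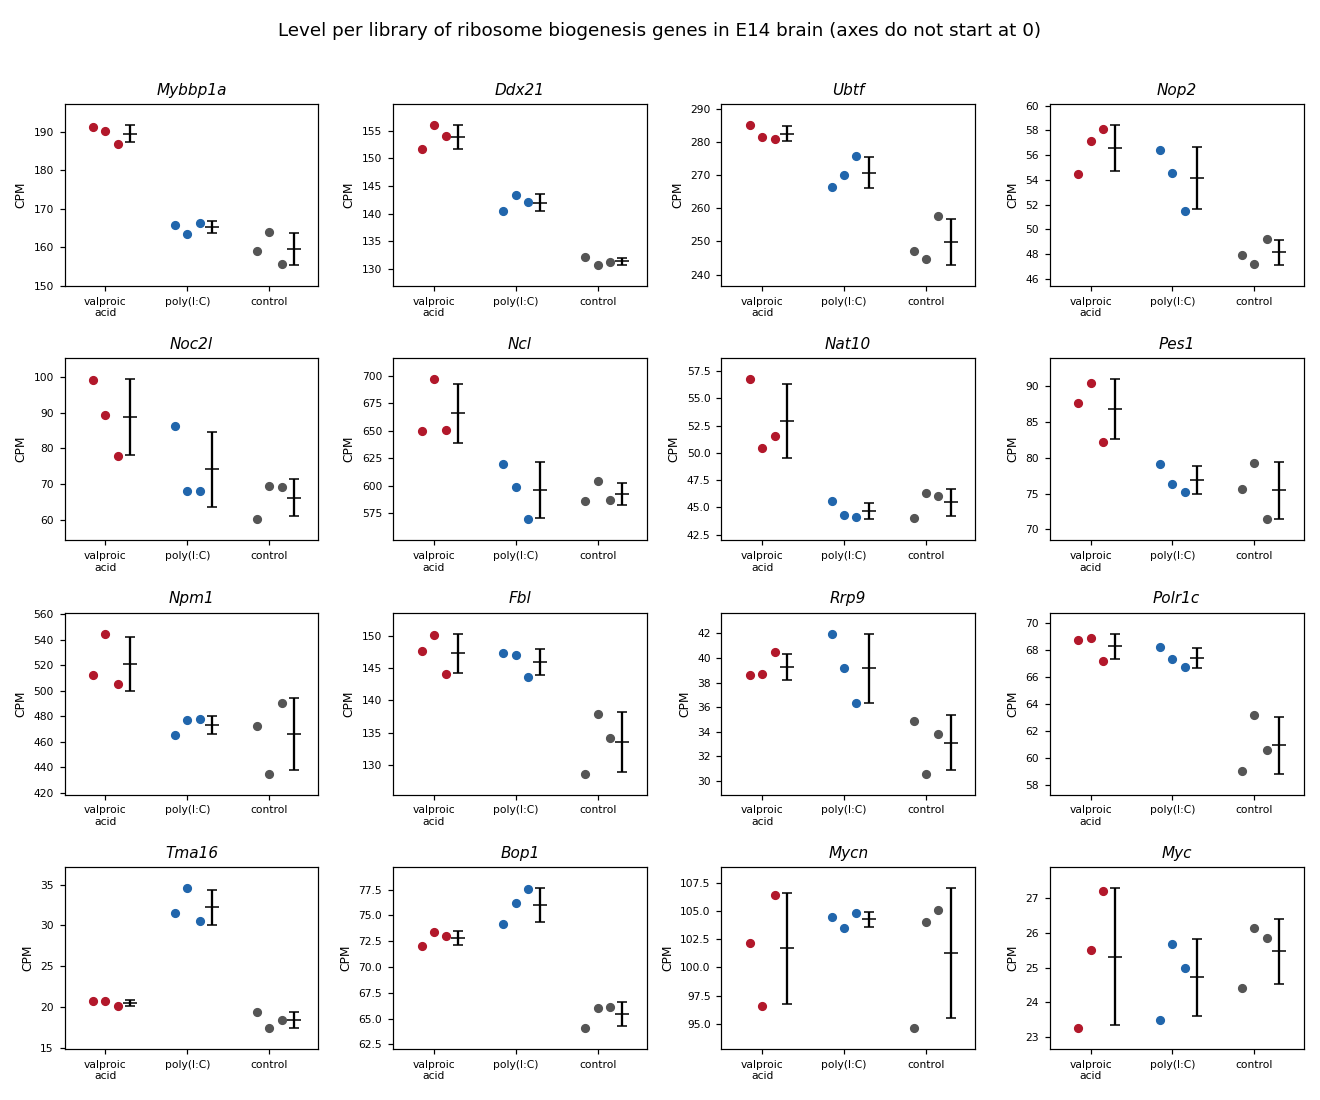
CPM in each of the 9 libraries (points) for genes called in at least 1 comparison, and for Mycn and Myc, with mean and SD of each group beside the points, in the order valproic acid, poly(I:C), control. Tma16 stood highest in poly(I:C) libraries at 30.5 to 34.6 CPM, whereas Mybbp1a stood highest in valproic acid libraries at 187 to 191 CPM.

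Of the scaffold proteins, Ncl and Npm1 rose in valproic acid brains. Nucleolin (Ncl) binds pre-ribosomal RNA and chromatin, and nucleophosmin (Npm1) is a chaperone that organizes the outer nucleolus. Ncl had 650.1, 697 and 651 CPM in valproic acid brains, 620.2, 599 and 569.5 CPM in poly(I:C) brains and 586, 604 and 587 CPM in control brains. All 3 valproic acid libraries were above all 6 others, and Ncl rose 1.12-fold against control (log2 0.17, SE 0.039, edgeR adjusted p = 0.0212). Without control replicate 1 the adjusted p was 0.0819, and without control replicate 3 it was 0.0707, and without valproic acid replicate 2 it was 0.0629. Npm1 had 513, 545 and 505 CPM in valproic acid brains, 465, 477 and 478 CPM in poly(I:C) brains and 472, 435 and 490.1 CPM in control brains. Here too every valproic acid library was above all the others. Npm1 rose 1.12-fold against control (log2 0.16, SE 0.044, edgeR adjusted p = 0.0427). Npm1 lost its call, with an adjusted p of 0.0552 to 0.14, when any library but control replicate 3 was left out. Nolc1, a chaperone of small nucleolar particles, differed by log2 0.07 (edgeR adjusted p = 0.38).

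Of the box C/D proteins, Fbl rose in valproic acid brains. Fibrillarin (Fbl) is the methyltransferase of the particle, and Nop56 and Nop58 are its paired core proteins. Fbl had 148, 150.1 and 144 CPM in valproic acid brains, 147, 147 and 144 CPM in poly(I:C) brains and 129, 138 and 134 CPM in control brains. Valproic acid and poly(I:C) libraries were all above the controls and overlapped each other. Against control the valproic acid difference was 1.10-fold (log2 0.14, SE 0.039, edgeR adjusted p = 0.0454). Its adjusted p was 0.0655 to 0.159 with any 1 library left out except control replicate 2. Nop56 had 149, 131 and 139 CPM in valproic acid brains, 146, 141 and 140.2 CPM in poly(I:C) brains and 129, 128 and 139 CPM in control brains. Valproic acid libraries overlapped both other groups (log2 0.08, SE 0.05, edgeR adjusted p = 0.372 against control), while all poly(I:C) libraries were above the controls (log2 0.11, edgeR adjusted p = 0.406). Nop58 had 109, 123 and 112 CPM in valproic acid brains, 108, 107 and 109 CPM in poly(I:C) brains and 104, 105 and 107 CPM in control brains. Valproic acid libraries were above the controls, by log2 0.12 (edgeR adjusted p = 0.141). Ncl, Nop56, Nop58 and Gnl3 carry 14 annotated small nucleolar RNA genes in their introns, but these had 18 counts in all 9 libraries together, too few to test. The box H/ACA proteins Nhp2, Nop10 and Gar1 were not called, at log2 0.03, 0.07 and 0.12. Nhp2 turned to -0.07 with the Y-linked covariate and -0.18 with Xist. At an unadjusted p under 0.05 Gar1 was higher, with all valproic acid libraries above the controls (log2 0.12, edgeR adjusted p = 0.146). Their catalytic partner Dkc1, encoded on X and looked up after its values were seen, is given with the wider list further on.

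Of the RNA polymerase I machinery, Ubtf, Mybbp1a and Polr1c rose and the polymerase's large subunits did not pass. Ubtf bends and opens ribosomal DNA for transcription. Ubtf had 285, 282 and 281 CPM in valproic acid brains, 266, 270.0 and 276 CPM in poly(I:C) brains and 247, 245 and 258 CPM in control brains. Every valproic acid library was above every other library. The difference from control was 1.13-fold (log2 0.18, SE 0.035, edgeR adjusted p = 0.00909). The call was kept in each of the 6 fits that left out 1 library, with an adjusted p of at most 0.0442. Mybbp1a, a Myb-binding nucleolar protein of ribosomal RNA synthesis and processing, had the smallest adjusted p of the 39 in this comparison. Mybbp1a had 191, 190.2 and 187 CPM in valproic acid brains, 166, 163 and 166 CPM in poly(I:C) brains and 159, 164 and 156 CPM in control brains. The valproic acid libraries were again above all others. Mybbp1a rose 1.19-fold (log2 0.25, SE 0.035, edgeR adjusted p = 0.00118). The call was kept in each of the 6 fits that left out 1 library, with an adjusted p of at most 0.00729. Polr1c is a subunit shared with RNA polymerase III. Polr1c had 68.8, 68.9 and 67.2 CPM in valproic acid brains, 68.2, 67.3 and 66.7 CPM in poly(I:C) brains and 59.0, 63.2 and 60.6 CPM in control brains. Both exposed groups were above the controls and overlapped each other. Polr1c rose 1.12-fold in valproic acid brains (log2 0.16, SE 0.046, edgeR adjusted p = 0.0479), and DESeq2 gave an adjusted p of 0.0643. Leaving out any library of the comparison other than control replicate 2 gave Polr1c an adjusted p of 0.0796 to 0.164.

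Polr1a and Polr1b form the catalytic core of RNA polymerase I. Polr1a had 52.1, 60.7 and 52.6 CPM in valproic acid brains, 50.5, 50.9 and 56.8 CPM in poly(I:C) brains and 49.1, 52.3 and 48.8 CPM in control brains. Polr1b had 42.3, 38.2 and 42.5 CPM in valproic acid brains, 41.4, 40.7 and 35.2 CPM in poly(I:C) brains and 34.7, 38.8 and 35.2 CPM in control brains. In both genes the valproic acid libraries overlapped the controls. Their differences from control were log2 0.14 (edgeR adjusted p = 0.246) and 0.18 (edgeR adjusted p = 0.162). Rrn3 is the growth-regulated initiation factor of the polymerase. Rrn3 had 107, 113 and 111 CPM in valproic acid brains, 109, 106 and 113 CPM in poly(I:C) brains and 109, 106 and 104 CPM in control brains. All 3 groups overlapped, and the difference of valproic acid from control was log2 0.05 (edgeR adjusted p = 0.527). With Xist as a covariate Polr1a and Rrn3 turned to log2 -0.03 and -0.03. A p above the threshold does not show that the levels were alike.

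Of the 8 small subunit factors, Nat10 and Rrp9 rose in valproic acid brains. Nat10 acetylates cytidines in ribosomal and transfer RNA. Nat10 had 56.7, 50.4 and 51.6 CPM in valproic acid brains, 45.6, 44.3 and 44.2 CPM in poly(I:C) brains and 44.0, 46.3 and 46.0 CPM in control brains. The valproic acid libraries were above all 6 others. Nat10 rose 1.16-fold (log2 0.22, SE 0.056, edgeR adjusted p = 0.0322). Nat10 lost its call, with an adjusted p of 0.052 to 0.115, when any library but valproic acid replicate 2 was left out. Rrp9 is a protein of the nucleolar particle that takes part in early cuts of the precursor. Rrp9 had 38.6, 38.7 and 40.4 CPM in valproic acid brains, 42.0, 39.2 and 36.3 CPM in poly(I:C) brains and 34.9, 30.6 and 33.8 CPM in control brains. Both exposed groups were above the controls. Rrp9 was 1.19-fold higher (log2 0.25, SE 0.069, edgeR adjusted p = 0.0465). The call was lost in each of the 6 fits that left out 1 library, where the adjusted p was 0.0675 to 0.153. Utp20, a very large scaffold of the small subunit processome, missed the threshold (log2 0.22, edgeR adjusted p = 0.0561), with all valproic acid libraries above the controls. The same separation without a call held for Rrp12, which acts in the maturation and export of the subunits, and for the nucleolar protein Noc4l. Utp4 and Nop14 of the processome and the RNA helicase Ddx10 were not called, at log2 0.03, 0.06 and 0.18, and their valproic acid libraries overlapped the controls. Nop14 turned to -0.07 with Xist.

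Of the 14 large subunit factors, Ddx21, Noc2l, Nop2 and Pes1 rose. Ddx21 is an RNA helicase of the nucleolus. Ddx21 had 152, 156 and 154 CPM in valproic acid brains, 140.4, 143 and 142 CPM in poly(I:C) brains and 132, 131 and 131 CPM in control brains. The groups separated completely, valproic acid above poly(I:C) and poly(I:C) above control. Against control Ddx21 rose 1.17-fold (log2 0.23, SE 0.035, edgeR adjusted p = 0.00212). The call was kept in each of the 6 fits that left out 1 library, with an adjusted p of at most 0.00994. Noc2l, which also inhibits histone acetyltransferases, had the largest difference. Noc2l had 99.0, 89.5 and 77.8 CPM in valproic acid brains, 86.3, 68.0 and 68.0 CPM in poly(I:C) brains and 60.1, 69.3 and 69.0 CPM in control brains. Its valproic acid libraries were all above the controls and spread widely, and poly(I:C) replicate 1 reached into their range. The rise was 1.34-fold (log2 0.42, SE 0.097, edgeR adjusted p = 0.0205). Without control replicate 1 the adjusted p was 0.0869, and without valproic acid replicate 1 it was 0.0689. Nop2 methylates the large subunit RNA. Nop2 had 54.5, 57.2 and 58.1 CPM in valproic acid brains, 56.4, 54.6 and 51.5 CPM in poly(I:C) brains and 47.9, 47.2 and 49.2 CPM in control brains. Both exposed groups were above the controls. Nop2 rose 1.18-fold in valproic acid brains (log2 0.23, SE 0.052, edgeR adjusted p = 0.0185). Its adjusted p was 0.0521 to 0.0646 with any 1 library left out except control replicate 3 or valproic acid replicate 1. Pes1 forms a complex with Bop1 and Wdr12 that is needed to process the large subunit RNA. Pes1 had 87.7, 90.5 and 82.2 CPM in valproic acid brains, 79.1, 76.3 and 75.3 CPM in poly(I:C) brains and 75.7, 79.3 and 71.4 CPM in control brains. Its valproic acid libraries were above all 6 others. Pes1 rose 1.15-fold (log2 0.20, SE 0.053, edgeR adjusted p = 0.0346). Leaving out any library of the comparison other than control replicate 2 or valproic acid replicate 3 gave Pes1 an adjusted p of 0.0781 to 0.128. The remaining 10 factors were not called. Bop1 had all valproic acid libraries above the controls (log2 0.15, edgeR adjusted p = 0.0526), and so did Tma16 (0.16), Rrp1b (0.12) and Ebna1bp2 (0.06), which act in assembly of the large subunit or its precursors. Valproic acid libraries overlapped the controls for Wdr12 (log2 0.06), for Nop16 (0.07) and Noc3l (0.07), for Mrto4 (0.07), which in yeast holds the place of a stalk protein, and for the stem cell GTP-binding protein nucleostemin, Gnl3 (0.07). Gnl3 turned to -0.03 with the Y-linked covariate. Rrs1, an early assembly factor, was the lowest, at log2 -0.08 (edgeR adjusted p = 0.624).

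Neither MYC gene was called in any comparison. Mycn is the family member typical of neural progenitors. Mycn had 102, 96.6 and 106 CPM in valproic acid brains, 104, 103 and 105 CPM in poly(I:C) brains and 94.6, 104 and 105 CPM in control brains. Myc had 23.3, 25.5 and 27.2 CPM in valproic acid brains, 23.5, 25.7 and 25.0 CPM in poly(I:C) brains and 24.4, 26.1 and 25.8 CPM in control brains. All 3 groups overlapped in both genes. Valproic acid against control gave log2 0.01 (SE 0.05, edgeR adjusted p = 0.969) for Mycn and -0.01 (SE 0.076, edgeR adjusted p = 0.96) for Myc. DESeq2 also called 0 of the 2 in each comparison, and 0 had an unadjusted p under 0.05.

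**Figure D2:**
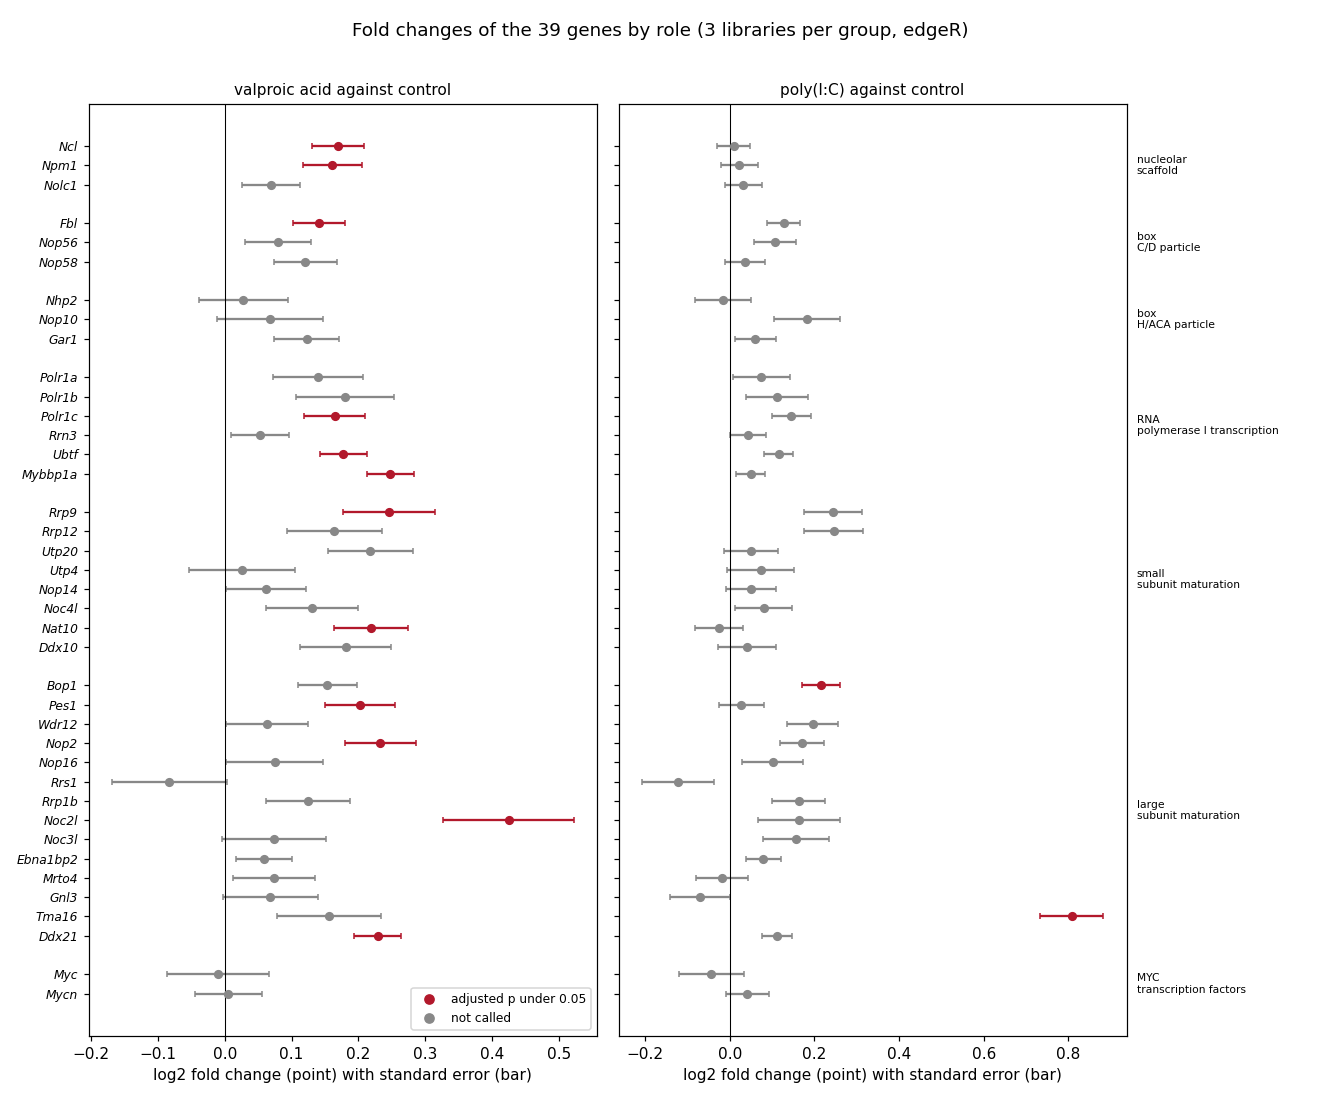
Log2 differences of each of the 39 genes against control, with standard errors of the fit as bars and called genes marked. In valproic acid against control the values lay between -0.08 and 0.42, in poly(I:C) against control between -0.12 and 0.81.

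In poly(I:C) brains Tma16 and Bop1 rose and 0 of the 39 fell, where 0.536% of all tested genes were called, 0.262% higher and 0.274% lower. At an unadjusted p under 0.05, 13 were higher and 0 lower, where 12% of all tested genes passed in either direction. DESeq2 called 2 higher and 0 lower, and 1.12% of all genes to which it gave an adjusted p. In 14 of 39 (35.9%) every poly(I:C) library was above every control library, and in 0 every one was below, against 9.61% and 8.83% of all tested genes. Log2 differences were above 0 in 33 of 39, against 48.9% of all tested genes. The median log2 difference was 0.07, and the summed level was 3638 ± 33.0 CPM in poly(I:C) and 3465 ± 33.7 CPM in control brains (SD, n = 3 each). Both exposures share these controls. Tma16, known in yeast as a protein bound to large subunit precursors, stood out. Tma16 had 20.8, 20.7 and 20.1 CPM in valproic acid brains, 31.5, 34.6 and 30.5 CPM in poly(I:C) brains and 19.4, 17.4 and 18.4 CPM in control brains. The poly(I:C) libraries were far above all others. Tma16 rose 1.75-fold against control (log2 0.81, SE 0.075, edgeR adjusted p = 6.61e-05). The call was kept in each of the 6 fits that left out 1 library, with an adjusted p of at most 8.04e-04. With the Y-linked or the Xist covariate its adjusted p was 8.80e-05 and 1.59e-04. Bop1 had 72.0, 73.3 and 73.0 CPM in valproic acid brains, 74.2, 76.2 and 77.5 CPM in poly(I:C) brains and 64.1, 66.0 and 66.2 CPM in control brains. All poly(I:C) libraries were above all valproic acid and control libraries. Bop1 rose 1.16-fold against control (log2 0.22, SE 0.044, edgeR adjusted p = 0.0437). The call was lost in each of the 6 fits that left out 1 library, where the adjusted p was 0.0865 to 0.19. The other 37 genes were not called, at log2 -0.12 to 0.25. Mycn and Myc differed by log2 0.04 and -0.04 (edgeR adjusted p = 0.797 and 0.874).

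Set against poly(I:C), valproic acid brains had higher Ncl, Mybbp1a and Nat10 and lower Tma16. Of all tested genes 2.59% were called, 1.42% higher and 1.18% lower. In 10 of 39 genes (25.6%) all valproic acid libraries were above all poly(I:C) libraries, against 10.5% of tested genes. In 2 (5.13%) all were below, against 11.4%. The median log2 difference was 0.04. Ncl was 1.12-fold higher (edgeR adjusted p = 0.0448). Ncl lost its call, with an adjusted p of 0.057 to 0.161, when any library but poly(I:C) replicate 1 was left out. Mybbp1a was 1.15-fold higher (edgeR adjusted p = 0.00986). Without poly(I:C) replicate 2 the adjusted p was 0.0624. Nat10 was 1.18-fold higher (edgeR adjusted p = 0.0347). Its adjusted p was 0.057 to 0.127 with any 1 library left out except valproic acid replicate 2. Tma16 was -0.65 on the log2 scale (SE 0.075, edgeR adjusted p = 4.49e-04). The call was kept in each of the 6 fits that left out 1 library, with an adjusted p of at most 0.00411. With either sex covariate 0 of the 39 were called higher, where 0.646% (Y-linked) and 0.227% (Xist) of all tested genes were called. At an unadjusted p under 0.05, 8 and 7 were higher with the Y-linked and the Xist covariate. No share of all tested genes at that unadjusted threshold is given for these fits, so the 8 and 7 cannot be set against a background.

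**Figure D3:**
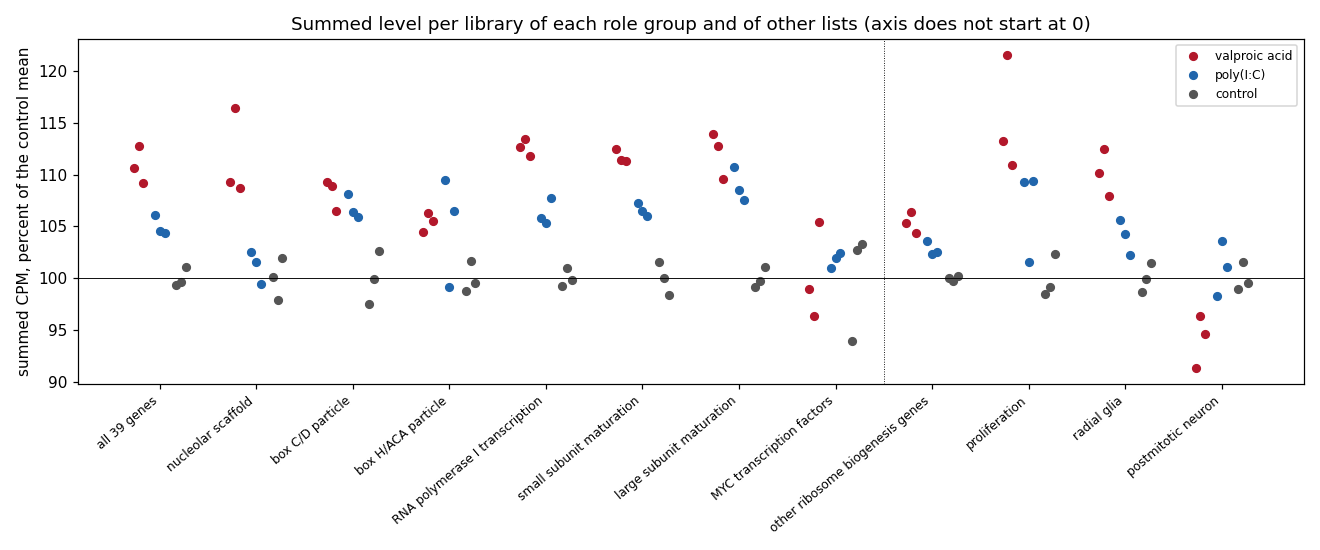
Summed CPM of the 39 genes, of each role group and (right of the dotted line) of other lists in every library (points), as a percentage of the control mean, in the order valproic acid, poly(I:C), control. Over the 39 genes valproic acid libraries stood at 109% to 113% and poly(I:C) libraries at 104% to 106% of the control mean.

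Levels can be compared between genes only per length. Per kilobase of annotated exon, Npm1 was highest, at 195 ± 7.94 CPM per kb in valproic acid and 175 ± 10.6 in control brains (SD, n = 3 each). Ncl followed at 58.1 CPM per kb in control brains. Mycn, at 30.7, was above Myc, at 9.37. Wdr12 and Tma16 were lowest, at 2.76 and 2.41. The order depends on the length used. Lengths of the longest principal transcript were tried after the exon levels had been seen, because exon unions can hold retained introns. They left Npm1 first and Wdr12 and Tma16 last, but moved 7 genes by over 5 ranks, most of all Nop58, from 28 to 5. Fbl moved from rank 7 to rank 2 and Ncl from 2 to 3. The differences between groups do not use a length.

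**Figure D4:**
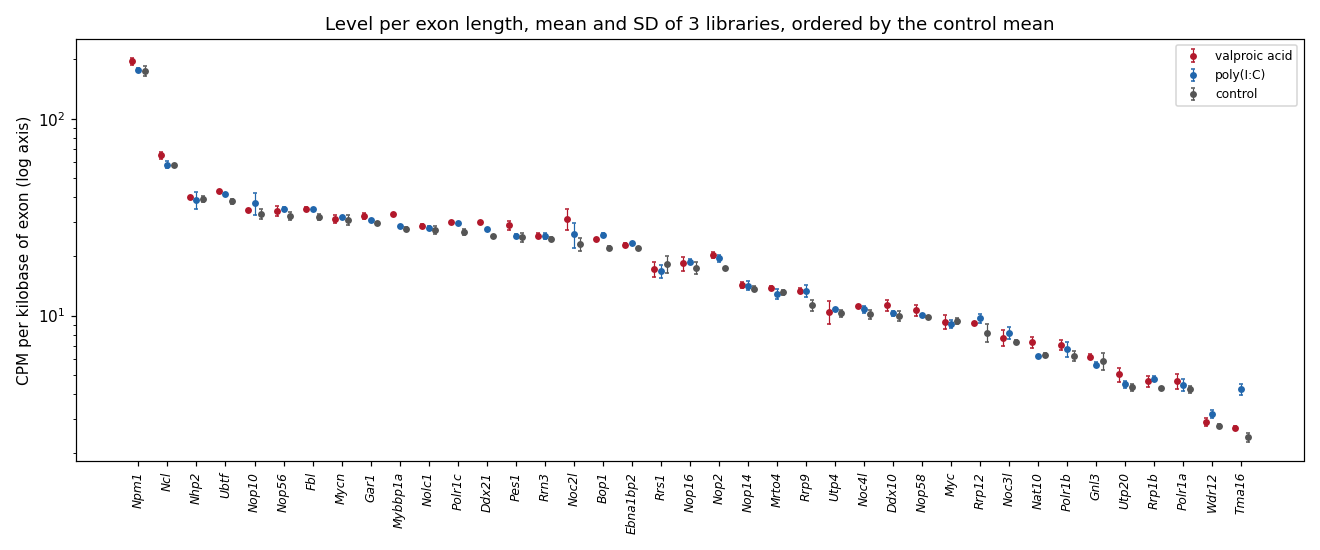
CPM per kilobase of annotated exon (log axis) for the 39 genes, as mean and SD of the 3 libraries of valproic acid, poly(I:C) and control, ordered by the control mean. Npm1 stands highest and Tma16 lowest in control brains.

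Of a wider list of 97 other ribosome biogenesis genes, 6 rose and 1 fell in valproic acid brains, against 3.57% and 2.78% of all tested genes. In 35 of the 97 all valproic acid libraries were above all controls and in 4 all were below, against 12.6% and 13% of all tested genes. The median log2 difference was 0.09. The gene that fell was Gnl3l, an X-linked GTP-binding protein related to nucleostemin, with 159.6 ± 4.27 CPM in valproic acid and 199.8 ± 5.49 CPM in control brains (log2 -0.32, edgeR adjusted p = 4.00e-04). Its call held in each fit that left out 1 library (at most 0.00312) and with the Y-linked covariate (0.00833) but not with Xist (0.262). Mdn1, the very large ATPase of large subunit precursors, had 107 ± 11.0 CPM in valproic acid and 86.1 ± 2.59 CPM in control brains (1.24-fold, edgeR adjusted p = 0.0165). Tbl3, a processome protein, had 53.3 ± 0.19 CPM in valproic acid and 45.9 ± 1.85 CPM in control brains (1.16-fold, edgeR adjusted p = 0.0217). Sdad1 had 53.5 ± 4.06 CPM in valproic acid and 45.1 ± 0.61 CPM in control brains (1.19-fold, edgeR adjusted p = 0.026). Each of these 3 lost its call in 3 or more of the 6 fits that left out 1 library, with adjusted p up to 0.0618 for Mdn1, 0.0716 for Tbl3 and 0.0883 for Sdad1. For Mdn1 these were the fits lacking replicate 3 of control, or replicate 2 or 3 of valproic acid. For Tbl3 they lacked replicate 1 or 2 of control, or replicate 2 or 3 of valproic acid, and for Sdad1 any library but replicate 1 of valproic acid. Dkc1, the pseudouridine synthase of the box H/ACA particle, had 59.8 ± 1.59 CPM in valproic acid and 51.1 ± 3.76 CPM in control brains (1.17-fold, edgeR adjusted p = 0.0411), and lost its call in all 6 such fits (0.0559 to 0.139). With the Y-linked covariate the adjusted p was 0.133 for Mdn1, 0.152 for Tbl3, 0.104 for Sdad1 and 0.294 for Dkc1, so that all 4 lost their calls. With Xist it was 0.761, 0.486, 0.443 and 0.800 for the same genes in that order.

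In poly(I:C) brains 2 of the 97 rose and 0 fell, against 0.262% and 0.274% of all tested genes. At an unadjusted p under 0.05, 16 of the 97 were higher and 5 lower, where 12% of all tested genes passed in either direction. Nvl, an ATPase of large subunit assembly, had 82.9 ± 1.96 CPM in poly(I:C) and 64.9 ± 2.50 CPM in control brains (1.28-fold, edgeR adjusted p = 0.00939). Without control replicate 1 or poly(I:C) replicate 1 its call was lost, with an adjusted p of at most 0.0571. Tbl3 had 55.8 ± 1.19 CPM in poly(I:C) and 45.9 ± 1.85 CPM in control brains (1.21-fold, edgeR adjusted p = 0.0222), and its call was lost without control replicates 1 or 2 or poly(I:C) replicates 1 or 3 (at most 0.107). With the Y-linked covariate both stayed called (0.0127 for Nvl and 0.0284 for Tbl3), and with Xist neither did (0.0501 and 0.0853). Against poly(I:C), valproic acid brains had 1 lower gene of the 97, Gnl3l, with 159.6 ± 4.27 CPM in valproic acid and 184 ± 4.88 CPM in poly(I:C) brains (0.87-fold, edgeR adjusted p = 0.0131). This call was lost in the fits lacking replicate 2 of poly(I:C) or replicate 3 of valproic acid (at most 0.0805), with the Y-linked covariate (0.105) and with Xist (0.334). Of 16 other genes listed for the RNA polymerase I machinery 13 were tested, since Polr1f, Polr1g and Polr1h were not matched by symbol. Of the 13, 1 rose in valproic acid brains and 0 fell, against 3.57% and 2.78% of all tested genes, and 2 were lower at an unadjusted p under 0.05. The gene that rose was Polr2e, a subunit common to the nuclear RNA polymerases. It had 74.0 ± 1.29 CPM in valproic acid and 64.6 ± 0.64 CPM in control brains (1.15-fold, edgeR adjusted p = 0.0171). In poly(I:C) brains 1 of the 13 rose, against 0.262% of all tested genes. This was Polr1d, a subunit shared with RNA polymerase III, with 35.3 ± 2.52 CPM in poly(I:C) and 27.6 ± 0.30 CPM in control brains (1.28-fold, edgeR adjusted p = 0.0392). Polr2e lost its call in fits lacking replicate 1 or 3 of control, or replicate 2 of valproic acid (at most 0.0666), and Polr1d without any library but poly(I:C) replicate 2 (at most 0.171). The Y-linked covariate gave Polr2e 0.113 and Polr1d 0.0372, and Xist gave them 0.520 and 0.107. In the MYC network of 9 genes edgeR called 0 in every comparison. At an unadjusted p under 0.05, 1 passed in valproic acid against control, where 22.1% of all tested genes did. In poly(I:C) against control 4 passed, all of them higher, against 12% of all tested genes in either direction. In valproic acid against poly(I:C) 0 passed, against 16.7%. Mnt, a MYC antagonist, had 80.0 ± 1.99 CPM in valproic acid and 74.4 ± 1.92 CPM in control brains (1.08-fold, edgeR adjusted p = 0.177). The mitochondrial ribosomal RNAs mt-Rnr1 and mt-Rnr2, which do not come from the nucleolus, rose 1.20-fold and 1.42-fold in valproic acid brains (edgeR adjusted p = 0.031 and 0.00116). The call of mt-Rnr1 was lost in 4 of the 6 fits that left out 1 library (at most 0.117), which lacked replicate 1 or 3 of control, or replicate 2 or 3 of valproic acid. Both mitochondrial RNAs stayed called with the Y-linked covariate (0.0313 and 0.00217) and not with Xist (0.369 and 0.155). Nuclear ribosomal RNA was depleted from these libraries and is not analysed here.

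The libraries carried markers of embryonic brain, with Tubb3 of neurons at 1902 to 2145 CPM and Sox2 of progenitors at 195 to 231 CPM. Krt5, Krt14, Myod1 and Myog of skin and muscle were at most 0.175 CPM. They belong to a list of 8 genes of skin, muscle and cartilage that was not near 0 throughout. Col2a1 of cartilage had 62.99 to 77.88 CPM, Acan at most 0.398 CPM and Myh3 of muscle at most 0.987 CPM. Acta1 of muscle was above Myh3 in every library. Markers of cell types also differed between valproic acid and control libraries, where 3.57% of all tested genes were called higher and 2.78% lower. Fits with a sex covariate or without 1 library are not given for these markers. Sex and exposure cannot be told apart for them either. Of 12 proliferation markers 8 rose and 0 fell, and their summed level was 1409 to 1544 CPM in valproic acid, 1289 to 1389 in poly(I:C) and 1251 to 1300 in control libraries. Of 12 radial glia markers 4 rose, with sums of 2543 to 2649, 2409 to 2489 and 2325 to 2390 CPM in the same order of groups. Of 10 markers of postmitotic neurons 4 fell, with sums of 7069 to 7457 CPM in valproic acid, 7610 to 8018 in poly(I:C) and 7660 to 7859 in control libraries. Erythroid markers rose in 4 of 10 genes, with sums of 2255 to 2615, 1384 to 2015 and 1792 to 2090 CPM. Of 9 microglia and macrophage markers 2 fell, with sums of 96.0 to 103, 97.3 to 105 and 109 to 115 CPM. Endothelial markers rose in 1 of 7. Of 7 mural and mesenchymal markers 1, Rgs5, fell, while 6 were above 0 and the median log2 difference was 0.18. Their sums were 752 to 947 CPM in valproic acid, 681 to 712 in poly(I:C) and 771 to 819 in control libraries. In poly(I:C) against control 0 markers of these lists were called by edgeR, where 0.536% of all tested genes were. At an unadjusted p under 0.05, which 12% of all tested genes passed, so did several markers. These were 5 proliferation markers, 6 radial glia markers and 1 neuron marker that were higher, and 4 mural and mesenchymal, 3 erythroid, 1 neuron and 1 microglia and macrophage marker that were lower. All 7 mural and mesenchymal markers were below 0 there. For 5 of them every poly(I:C) library was below every control, as it was for 8.83% of all tested genes. The part of these markers in the differences of the 39 genes was not tested.

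Of the 39 genes 12 share exon sequence with a gene on the opposite strand (Nop56, Nhp2, Polr1a, Mybbp1a, Rrp9, Nop14, Bop1, Pes1, Wdr12, Rrp1b, Noc2l and Gnl3). No source used here gives the strand setting of the counts, and reads of such partners cannot be told apart.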

How the data were processed

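RNA was measured by RNA-seq in 9 libraries from whole brains of mouse embryos, 3 per group. The authors deposited raw counts per Ensembl gene, used here as whole-number counts. Per the labels' protocols, total RNA was column-purified, depleted of ribosomal RNA and built into libraries with a NEBNext Ultra kit. HISAT2 and GRCm39 (mm39) are named per the submitters' processing notes. The counter, its strand setting and its annotation: not given in the sources used here.

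Symbols, chromosomes and exon lengths came from GENCODE M21, on the earlier build GRCm38. All 39 genes matched. Low genes were removed in edgeR 4.0.16 (filterByExpr, with a min.count of 10 and a min.total.count of 15) and counts scaled by TMM. All 9 libraries were fitted together, a mean per group, with the two-sided quasi-likelihood test, adjusted over 17171 genes (Benjamini-Hochberg). CPM values use TMM factors. R was 4.3.3, and scripts were tested on simulated data. Alternatives were DESeq2 1.42.0, other filters and size factors, only the 6 libraries compared, sex covariates, a replicate block and leaving out each library. Levels per kilobase use exon unions, and principal transcripts were added after the exon levels had been seen. Libraries of a group differed by more than counting error (chi-square per degree of freedom 3.95 to 6.46), so none is a copy.

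The members and lists were chosen with earlier results of these data known. Values in every library are given for genes called in any comparison and for 11 genes set by name. Of each pathway list up to 4 called genes are named. Genes named outside this rule are marked.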

Additional observations from a re-analysis of the deposited data

How the results depend on the processing

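Counts here are over all 39 genes, and a gene called in an alternative need not be among those called above. In valproic acid against control the count of 12 rising genes was 7 with the replicate block and 3 with the Y-linked covariate. It was 0 with Xist and 6 with only the 6 libraries compared. Leaving out 1 library gave 3 to 8, and the median log2 difference was then 0.12 to 0.15, at most without valproic acid replicate 1. In poly(I:C) against control the count of 2 was 1 with the replicate block, with either sex covariate, with the 6 libraries compared and in each fit that left out 1 library. In valproic acid against poly(I:C) the count of 3 was 5 with no filter on low counts, 0 with either sex covariate, 1 with the 6 libraries compared and 0 to 3 without a library. Called genes kept their direction under each alternative run. Of the named genes that were not called, the log2 difference changed sign in 24 cases, none of them called with or without the change in processing. For valproic acid against control with the Xist covariate it was -0.026 for Polr1a, -0.028 for Rrn3 and -0.0023 for Mycn. For valproic acid against control with the Y-linked covariate it was -0.025 for Mycn. Leaving out 1 library in valproic acid against control gave -0.041 to 0.041 for Mycn and -0.063 to 0.047 for Myc. Leaving out 1 library in poly(I:C) against control gave -0.0044 to 0.070 for Mycn, -0.024 to 0.061 for Npm1 and -0.020 to 0.041 for Ncl. For valproic acid against poly(I:C) with the Xist covariate it was -0.043 for Polr1a and -0.044 for Rrn3. For valproic acid against poly(I:C) with the Y-linked covariate it was -0.00058 for Rrn3. Leaving out 1 library in valproic acid against poly(I:C) gave -0.019 to 0.092 for Myc, -0.017 to 0.035 for Rrn3, -0.0011 to 0.12 for Polr1b, -0.00084 to 0.029 for Fbl, -0.074 to 0.016 for Nop56, -0.0092 to 0.12 for Polr1a and -0.068 to 0.00058 for Mycn. Same-numbered libraries were not treated as pairs, since the labels name no pairing. Their deviations correlated at -0.042 to 0.131, and those of other-numbered libraries at -0.091 to 0.048. With 3 libraries per group this cannot settle whether they were paired, so the block stands for no more than a shared number. Over all tested genes, valproic acid against control called 1090 genes, but 272 with the Y-linked covariate, 19 with Xist and 1661 with no filter. That comparison called 912 with the replicate block, 827 with the 6 libraries compared and 467 to 789 with 1 library left out. Poly(I:C) against control called 92, but 464 with no filter and 170 with DESeq2. It called 88 with the block, 86 with the Y-linked covariate and 42 with Xist. With the 6 libraries compared it called 104, and with 1 library left out 38 to 63. Valproic acid against poly(I:C) called 445, but 1057 with no filter. It called 111 with the Y-linked covariate, 39 with Xist, 348 with the 6 libraries compared and 113 to 294 with 1 library left out. The causes were not tested. Depth did not limit the 39 genes to low counts, but with 3 libraries per group small differences can be missed.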

Other observations

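The genes next to Tma16 on its chromosome were looked up after its value was seen. March1, a ubiquitin ligase gene, had 23.1 ± 2.19 CPM in poly(I:C) and 31.1 ± 1.44 CPM in control brains (SD, n = 3 each; log2 -0.43, SE 0.087, edgeR adjusted p = 0.0431). It kept its call in 1 of the 6 fits that left out 1 library, and the adjusted p reached 0.196. The lower level of March1 was not particular to poly(I:C). Valproic acid libraries had 20.2, 24.0 and 23.8 CPM, also below the control libraries at 30.1 to 32.8 CPM, and no test of that difference is given here. Npy1r and Tmem192 were not called (edgeR adjusted p = 0.711 and 0.983). Naf1, an assembly factor of box H/ACA particles, had 14.1 ± 1.08 CPM in poly(I:C) and 14.8 ± 1.87 CPM in control brains (edgeR adjusted p = 0.836).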
